A study of Mus musculus with 4 samples.

Results

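The Hox cluster genes were taken as the members of the Hoxa, Hoxb, Hoxc and Hoxd clusters with a paralog number in their symbol, without antisense or opposite-strand genes. There were 38 members, 35 of which had a named probe, among 18327 named genes on the array. No probe was named for Hoxc4, Hoxc6 and Hoxc11. One probe per gene was used, the one with the highest mean signal over the 4 arrays. Of the 35 genes, 27 were well above background on at least 1 array, and 24 were so on both arrays of at least 1 genotype and entered the test.

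The study compared wild-type embryos with HP1γ-/- embryos, which carry a modified gene-trap allele of Cbx3, the gene for the heterochromatin protein HP1γ. Embryos of both genotypes carried the Blimp1-mVenus transgene, which reports the activity of Blimp1 (Prdm1), a transcriptional repressor that primordial germ cells need. Cells positive for mVenus were sorted from genital ridges at embryonic day 11.5 and are labelled primordial germ cells. Each of the 2 independent pools per genotype held RNA of 5 or 6 embryos, at about 500 to 3500 cells each, and 4 ng was labelled for 1 one-colour array. Pools are called wild-type 1 and 2 and null 1 and 2. The sex and strain of the embryos are not given in the labels.

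Hox genes encode homeodomain transcription factors that give cells their position along the head-to-tail axis. In each cluster the genes lie in the order in which they are used: low paralog numbers act in the hindbrain and neck, high numbers in the lower trunk, limbs, hindgut and genital tubercle. Cells keep the Hox code of their axial level, so connective tissue, endothelium and epithelium of one region can each carry Hox transcripts, and Polycomb proteins hold the unused genes of a cluster silent.

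The arrays were of unequal brightness, with a 75th percentile of the signal between 125 and 291 intensity units. Levels below are log2 signals relative to that percentile on the same array. The targeted gene Cbx3 was at 4.80 and 5.07 in wild-type 1 and 2 and at -1.95 and -1.59 in null 1 and 2 by probe A_51_P160328 (limma adjusted p = 0.044). By its other probe, A_51_P117162, the difference was -7.82 and missed the threshold (limma adjusted p = 0.099). That other probe had the higher mean signal, so the rule used for the Hox genes would have taken it. The position of the probe with respect to the trapped site is not stated. Across tested probes the wild-type pools correlated at r = 0.988 and the null pools at 0.943. Null 2 stood apart: of 12 germ cell markers with a probe, 11, 11 and 12 were well above background in wild-type 1, wild-type 2 and null 1, and 4 in null 2. Dppa3, Pou5f1, Ddx4, Sox2, Dazl, Tfap2c, Mael and Nanos3 were not well above background there. All 12 endothelial and all 9 leukocyte markers were well above background in every pool, so levels cannot be assigned to germ cells. Results for the Hox genes are therefore also given without each null pool. In such bulk samples, fewer cells of a type and less RNA per cell cannot be told apart.

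Hox transcripts were measurable in every pool, and the same genes were well above background in both wild-type pools. Of the 35 genes with a probe, 22 were well above background on all 4 arrays, 8 on none and 5 on null arrays alone. No Hox gene was above background in wild type alone. The number above background was 22 in each wild-type pool, 25 in null 1 and 26 in null 2. The shares over all spots were 53.3%, 56.7%, 53.8% and 63.3% in wild-type 1, wild-type 2, null 1 and null 2. Among all 41153 probes, 49.4% were above background on all 4 arrays, 7.65% on null arrays alone and 1.21% on wild-type arrays alone. With the scanner software's looser mark for a positive and significant signal, 25 Hox genes were detected on all 4 arrays, 3 on null arrays alone and 2 on wild-type arrays alone. The counts on null and on wild-type arrays alone were thus closer under the looser mark. That mark held for 69.7%, 72.6%, 71.0% and 78.0% of all spots, in the same order of pools. Its shares on the arrays of 1 genotype alone were not computed over all probes. Hox genes were counted by their brightest probe, while the shares are over every probe or spot.

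The clusters differed in how much of them was above background. In HoxA 9 of 10 genes with a probe entered the test, in HoxB 9 of 10, in HoxC 2 of 6 and in HoxD 4 of 9. Over the whole array 22440 of 41153 probes did. Hoxa6 and Hoxb13 are counted here through the null pools alone. The genes below background in every pool were Hoxb1, Hoxc8, Hoxc12, Hoxc13, Hoxd1, Hoxd3, Hoxd10 and Hoxd12. By position, 4 of 7 genes with paralog numbers 1 to 3, 12 of 13 with numbers 4 to 8 and 8 of 15 with numbers 9 to 13 entered the test. Trunk genes of the middle of the clusters were thus the best represented, and both genes of paralog group 1 with a probe were below background. These are counts of detection by single probes of unknown efficiency.

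**Figure D1:**
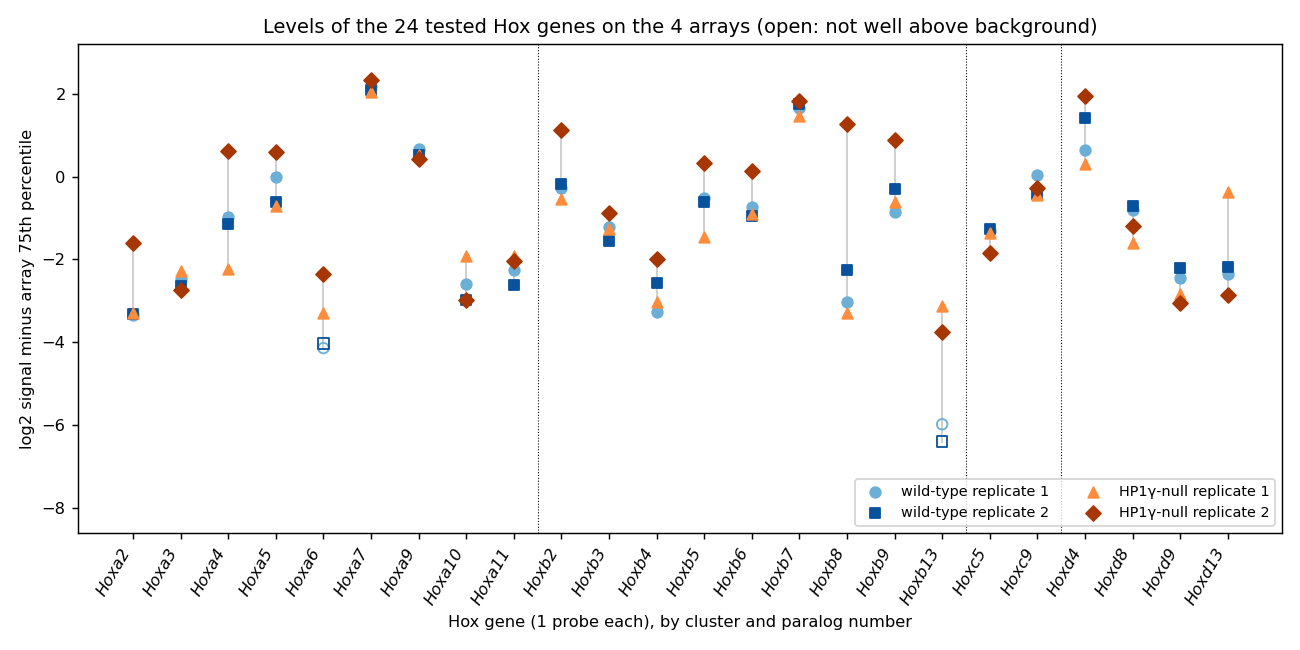
Log2 signal relative to the array's 75th percentile (vertical axis) for the 24 tested Hox genes, by cluster and paralog number, with 1 symbol per pool, joined by a grey line from lowest to highest and open where the probe was not well above background. The wild-type symbols of each gene lie within 0.78 of each other, while those of the null pools are 4.54 apart for Hoxb8, 2.85 for Hoxa4 and 2.49 for Hoxd13.

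The comparison of the genotypes asks whether loss of HP1γ moved the Hox genes. None of the 24 tested Hox genes passed the threshold of 0.05 (limma, Benjamini-Hochberg over 22440 probes), which 0.00891% of all tested probes did. At an unadjusted p under 0.05 there were 4 Hox genes (Hoxb13, Hoxa6, Hoxd9 and Hoxd8), against 7.51% of all tested probes. The mean was higher in the null pools for 18 Hox genes and lower for 6, against 41.7% of all tested probes higher. The median difference, null minus wild type, was 0.29 over the Hox genes and -0.06 over all tested probes. That shift rested on null 2: without it the median was -0.10 and 8 genes were higher, and without null 1 it was 0.70 and 16 were higher. Scaling the arrays to spiked-in control RNA gave a median of -0.26, against -0.61 over all probes, with 6 Hox genes higher.

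The arrays of the genotypes did not overlap for 8 of the 24 genes, 4 higher and 4 lower in the null pools, against 38.2% of all tested probes (15.1% higher, 23% lower). Hoxa2, Hoxa6, Hoxa11 and Hoxb13 were the higher ones and Hoxa9, Hoxc5, Hoxd8 and Hoxd9 the lower ones. Only Hoxa6 and Hoxb13 were also at least 2-fold apart, by their measured means, both higher in the null pools, against 4.99% of all tested probes (3.92% higher, 1.07% lower). Both were below background in wild type, so they entered the test only through the null pools, where they are high, and that filter fixed their direction. Over the 22 genes well above background in all 4 pools, 16 had a higher mean in the null pools (median 0.26), 2 were higher and 4 lower without overlap, and 0 were 2-fold apart without overlap. With normexp background correction neither Hoxa6 nor Hoxb13 was 2-fold apart and Hoxb8 was; with spike-in scaling Hoxb13, Hoxd8 and Hoxd9 were, the HoxD genes lower. By cluster, the mean was higher in the null pools for 8 of 9 HoxA genes (median difference 0.27), 8 of 9 HoxB genes (0.46), 0 of 2 HoxC genes (-0.24) and 2 of 4 HoxD genes (-0.25). With 2 pools a side, an exact permutation test of a single gene cannot go below p = 0.33.

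Hoxb13, which acts in the tail and later in the prostate, had the smallest p of the tested Hox genes, among which its high null values placed it. Its level was -5.98 and -6.40 in wild-type 1 and 2 and -3.13 and -3.75 in null 1 and 2. Both null pools lay above both wild-type pools, where the probe was not well above background. The fitted log2 difference was 2.75 (SE 0.31, limma adjusted p = 0.17, range over the alternatives 0.019 to 1.00). Because wild type gives only a bound, the null pools were at least 1.37-fold higher, at least 1.11-fold without null 1 and at least 1.70-fold without null 2. The bound sets the null mean against the lowest signal that counted as above background on each wild-type array. The size depended on the processing. With normexp, which adds an offset of 50 to the corrected signals, the log2 difference was 0.31 (1.24-fold, limma adjusted p = 1.00), under that bound. With spike-in scaling it was 2.20 and passed the threshold (limma adjusted p = 0.019). Under that scaling 146 of 22440 probes passed, against 2 in the fit reported.

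Hoxa6, a thoracic gene of the middle of the HoxA cluster, was the other gene well above background in both null pools and in no wild-type pool. By the looser mark it was detected in wild type too. Its level was -4.14 and -4.03 in wild-type 1 and 2 and -3.29 and -2.35 in null 1 and 2. The pools of the genotypes did not overlap, and null 2 was the highest. The fitted difference of 1.26 (SE 0.37) did not pass the test (limma adjusted p = 0.58). In the fit reported, the bound put the null pools at least 2.04-fold higher. In wild-type 2 the gene's own level was used for the bound, as it lay above the lowest signal counted there (-4.11). The bound was 2.83-fold without null 1 and 1.48-fold without null 2. The measured difference was 0.43 (1.35-fold) with normexp and 0.71 (1.64-fold) with spike-in scaling, both under 2.04-fold.

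Among the genes lower in both null pools, the HoxD genes Hoxd8 and Hoxd9 had the smallest p. Hoxd8 was at -0.81 and -0.70 in wild type and -1.59 and -1.19 in null 1 and 2. Hoxd9, which acts in the trunk and limb, was at -2.45 and -2.21 in wild type and -2.82 and -3.05 in null 1 and 2. Both null pools lay below both wild-type pools for either gene. The differences of -0.63 (SE 0.23, limma adjusted p = 0.66) and -0.61 (SE 0.22, limma adjusted p = 0.65) did not pass the test. Hoxd9's other probe, below background on wild-type 1 and null 1, read -3.98 and -3.07 in wild type and -4.11 and -2.88 in null 1 and 2, which overlap.

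Hoxc5 and Hoxa11 also differed without overlap. Hoxc5 was at -1.32 and -1.27 in wild type and -1.37 and -1.84 in the null pools, a difference of -0.31 (SE 0.25, limma adjusted p = 0.85). Hoxa11, needed for the forearm, kidney and uterus, was at -2.27 and -2.61 in wild type and -1.92 and -2.04 in the null pools, a difference of 0.46 (SE 0.22, limma adjusted p = 0.75). With spike-in scaling the Hoxa11 difference was -0.087. In each case the nearest pools of the 2 genotypes were closer than the 2 pools of one genotype.

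Hoxb3, a hindbrain and neck gene, was at -1.23 and -1.55 in wild type and -1.26 and -0.89 in the null pools. These overlap, and the difference of 0.31 (SE 0.25) did not pass the test (limma adjusted p = 0.86). A second Hoxb3 probe gave -0.20, so the direction was not shared by the probes. Spike-in scaling also turned it, to -0.23.

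The 2 null pools differed from each other for much of the family. Null 1 and null 2 were at least 2-fold apart for 12 of the 24 genes, 10 of them higher in null 2, against 14.3% of all tested probes in either direction and 6.66% higher in null 2. The wild-type pools were that far apart for 0 of the 24, against 2.95% of all tested probes. Null 2 was the highest of the 4 pools for 14 genes and null 1 for 5, against 26.4% and 31.2% of all tested probes. The median range over the 4 pools was 1.17 for the Hox genes and 0.63 for all tested probes. With 2 pools these are descriptions of the arrays, with no test.

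The direction of that difference was not the same along the clusters. Null 2 was above null 1 for 14 of 16 genes with numbers 2 to 8 (median difference 1.03) and for 2 of 8 with numbers 9 to 13 (median -0.17), against 45.4% of all tested probes. The exceptions among numbers 2 to 8 were Hoxa3 and Hoxc5. For Hoxa3 the second probe went the other way, at -5.42 in null 1 and -3.78 in null 2. It was well above background in null 2 alone, so the direction of Hoxa3 is not settled. The division at 8 and 9 was chosen after the values were seen. With normexp background correction the median over numbers 2 to 8 was 0.48. With spike-in scaling both medians were positive, 1.56 and 0.36, while all probes had a median of 0.46.

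**Figure D2:**
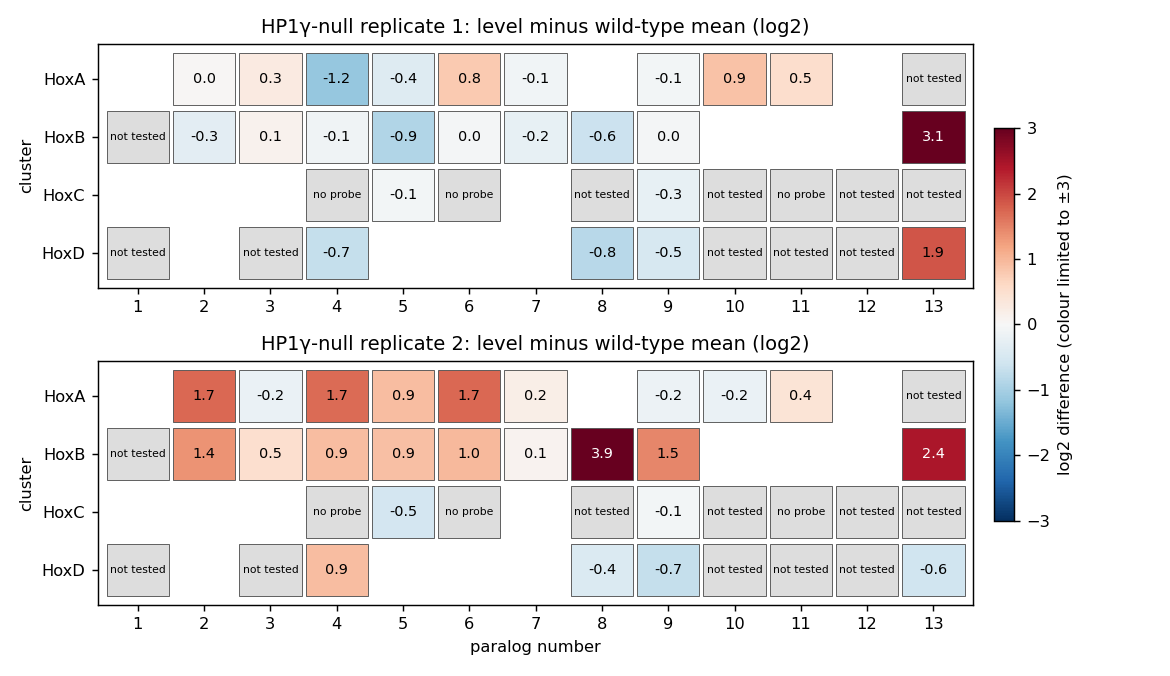
Level in null 1 (upper panel) and null 2 (lower panel) minus the wild-type mean, on the log2 scale, by cluster (rows) and paralog number (columns), with red for higher and blue for lower than wild type; grey squares hold genes without a probe or not tested, and blank positions hold no member. The medians over the tested genes are -0.10 in null 1 and 0.70 in null 2. Hoxb13, which entered the test only through the null pools, is red in both panels.

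Hoxb8, a thoracic gene also active in blood progenitors, had the widest range of the tested genes. Its level was -3.03 and -2.25 in wild-type 1 and 2, -3.28 in null 1 and 1.26 in null 2. Null 2 alone was high, 4.54 above null 1, and null 1 was the lowest of all. The mean difference of 1.63 (SE 1.56, limma adjusted p = 0.88) became -0.64 without null 2. Its second probe stayed below background in all 4 pools.

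Hoxa4, Hoxb5 and Hoxa2 were also high in null 2. Hoxa4 was at -0.99 and -1.15 in wild type, -2.23 in null 1 and 0.62 in null 2. A second Hoxa4 probe, below background in all 4 pools, read -4.52 in null 1 and -4.69 in null 2. Hoxb5 was at -0.52 and -0.61 in wild type, -1.46 in null 1 and 0.33 in null 2. For both, null 1 lay below and null 2 above the wild-type pools, so the genotype means nearly coincided (differences of 0.26, SE 0.98, limma adjusted p = 0.98, and 0.00, SE 0.63, limma adjusted p = 1.00). Without null 2 the differences were -1.16 and -0.89. Hoxa2, which patterns the hindbrain and second pharyngeal arch, was at -3.33, -3.32 and -3.30 in wild-type 1, wild-type 2 and null 1, and at -1.61 in null 2. The Hoxa2 difference of 0.87 (SE 0.60, limma adjusted p = 0.83) thus came from a single pool.

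The other central and anterior genes that were at least 2-fold higher in null 2 than in null 1 were Hoxb2, Hoxd4, Hoxa5, Hoxb4 and Hoxb6, by 1.67, 1.62, 1.31, 1.04 and 1.02. Hoxa5, needed for the lung and airway, was at -0.01 and -0.62 in wild type, -0.71 in null 1 and 0.60 in null 2. Hoxd4 was at 0.64 and 1.40 in wild type, 0.31 in null 1 and 1.93 in null 2. Both genes show the same order, with null 1 lowest and null 2 highest. Hoxb9 was 1.50 higher in null 2 by its brighter probe and 1.01 lower by its other tested probe (-1.01), so its direction is not settled. The steadiest members were Hoxa9, Hoxa7 and Hoxb7, with ranges over the 4 pools of 0.24, 0.30 and 0.35.

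The paralog 13 genes, which pattern the digits, hindgut and genital tubercle, went the other way. Hoxd13 was at -2.34 and -2.18 in wild type, -0.36 in null 1 and -2.86 in null 2. Its second probe gave -3.93, -5.19, -1.10 and -4.47 in the same order, again with null 1 highest. The mean difference of 0.65 (SE 0.86, limma adjusted p = 0.93) became -0.60 without null 1. Hoxa13 was at -5.86 and -6.01 in wild type, -1.59 in null 1 and -6.69 in null 2, above background in null 1 alone, as 0.902% of all probes were. Its second probe was highest in null 1 too (-3.57) without being well above background. Hoxa10 was at -1.92 in null 1 and between -2.98 and -2.59 elsewhere.

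Hoxd11 and Hoxc10 were above background in null 2 alone, as 5.62% of all probes were. Hoxd11, a limb and kidney gene, was at -5.98, -6.41, -5.71 and -3.30, so null 2 stood clear of the rest. Hoxc10 was at -4.87, -4.60, -4.39 and -4.15, a range of 0.72 near the background. The high paralog numbers were therefore not uniform: the genes of number 13 were highest in null 1, and Hoxd11 in null 2.

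**Figure D3:**
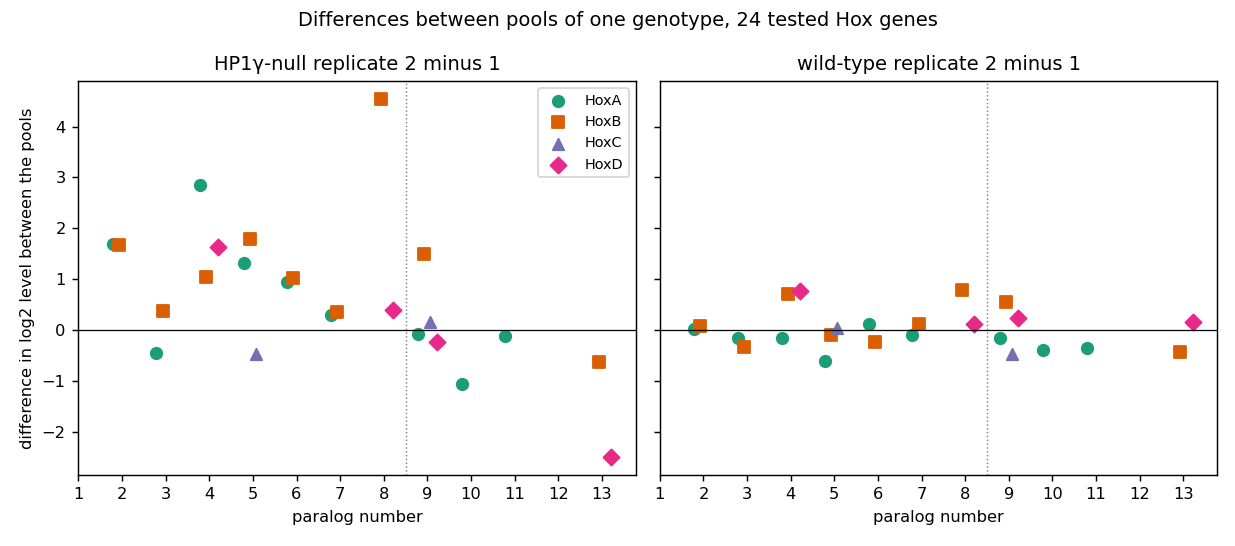
Difference in log2 level between the pools of one genotype (vertical axis) against paralog number, 1 symbol per tested Hox gene, shaped and coloured by cluster, for the null pools (left) and the wild-type pools (right); the dotted line separates numbers 8 and 9. In the null pools 14 of 16 genes with numbers 2 to 8 lie above 0 and 2 of 8 with higher numbers do, while no wild-type difference reaches 2-fold.

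The proximal promoters of 4 genes with large differences between the null pools are shown, 2 in each direction, chosen after the values were seen. Each is the 250 bases before the RefSeq start (GRCm38.p6), with matched motif letters in capitals. Hoxb8 (chr11:96281655-96281904, plus strand) and Hoxa2 (chr6:52164832-52165081, minus strand) were highest in null 2. Hoxa13 (chr6:52260881-52261130, minus strand) and Hoxd13 (chr2:74667975-74668224, plus strand) were highest in null 1.
Hoxb8: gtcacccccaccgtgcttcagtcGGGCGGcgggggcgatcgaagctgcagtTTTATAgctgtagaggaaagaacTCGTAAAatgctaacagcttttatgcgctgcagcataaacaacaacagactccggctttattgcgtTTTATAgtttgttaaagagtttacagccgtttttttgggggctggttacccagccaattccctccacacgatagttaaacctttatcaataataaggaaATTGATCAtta
Hoxa2: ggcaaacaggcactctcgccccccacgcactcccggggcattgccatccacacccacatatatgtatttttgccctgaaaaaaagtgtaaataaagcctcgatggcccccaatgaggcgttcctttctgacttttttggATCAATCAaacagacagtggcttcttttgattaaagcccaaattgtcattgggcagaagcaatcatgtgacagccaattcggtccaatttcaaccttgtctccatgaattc
Hoxa13: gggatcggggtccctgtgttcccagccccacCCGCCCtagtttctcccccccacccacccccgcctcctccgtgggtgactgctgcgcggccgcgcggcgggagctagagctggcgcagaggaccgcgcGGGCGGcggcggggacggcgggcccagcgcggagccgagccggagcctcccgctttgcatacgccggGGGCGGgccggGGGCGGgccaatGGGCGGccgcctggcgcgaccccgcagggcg
Hoxd13: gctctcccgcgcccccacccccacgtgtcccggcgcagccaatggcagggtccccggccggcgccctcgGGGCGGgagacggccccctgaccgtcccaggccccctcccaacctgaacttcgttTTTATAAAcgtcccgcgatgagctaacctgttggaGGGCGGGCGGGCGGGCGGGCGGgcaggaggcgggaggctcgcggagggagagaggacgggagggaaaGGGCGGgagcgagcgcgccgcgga
The Hoxa13 and Hoxd13 windows hold 35 and 31 CpG dinucleotides, and those of Hoxb8 and Hoxa2 hold 12 and 6. The median was 12.5 over the 24 windows of the 22 matched Hox genes and 6 over 32851 RefSeq windows. CpG number did not separate the directions among other members: Hoxa5 and Hoxa6, higher in null 2, had 28 and 24, and the 2 windows of Hoxa10, higher in null 1, had 20 and 7. The capitals mark the Pbx-Hox composite TGATNNAT, the Cdx motif TTTATGG, the TATA box TATAAA, the GC box GGGCGG and the Hox13 motif TTTACGA, searched on both strands with overlaps counted. They occur in 7.68%, 2.43%, 12.4%, 32.7% and 0.478% of all windows, and in 4, 1, 4, 10 and 1 of the 24 Hox windows. The composite begins 11 bases before the start in Hoxb8 and 111 before it in Hoxa2. Hoxa13 has 5 GC boxes and Hoxd13 has 7, several of them overlapping. These matches are descriptions of the letters, and no binding was measured.

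Markers of other cells moved with the same pools. The summed level of 15 stromal markers was 4.92 and 3.88 in wild type, 4.00 in null 1 and 6.57 in null 2, and null 2 was above null 1 for 12 of the 13 tested (median 2.87). This is the order of Hoxa4, Hoxa5, Hoxb5 and Hoxb8 in the null pools. It was not particular to stroma. Null 2 was also above null 1 for 11 of 12 tested endothelial markers (median 0.40). The same held for 5 of 6 gonadal soma (0.68) and 4 of 4 erythroid markers (1.19), against 45.4% of all tested probes. Among tested leukocyte markers 2 of 9 had that order, and among neural markers 3 of 5. The summed level of 8 hindgut and mesentery markers was 0.01 and -0.30 in wild type, 3.36 in null 1 and 0.00 in null 2. Foxa1, Foxa2, Cdx2, Cdh1 and Epcam were highest in null 1, as Hoxa13 and Hoxd13 were, while Foxf1, Barx1 and Nkx2-3 were highest in null 2. Cdh1 and Epcam are also expressed by germ cells. Gonadal soma markers summed to 2.56, 2.11, 2.89 and 3.75. Mesonephros markers summed to 1.87 and 1.17 in wild type, 5.10 in null 1 and 3.14 in null 2, but Krt18 (4.38) and Wfdc2 (3.61) made up most of the sum in null 1. There Pax2, Pax8, Osr1, Ret and Emx2 were below background, and the list's median was -3.87 in null 1 and -2.79 in null 2. Endothelial (7.80 to 8.76) and leukocyte (7.93 to 8.42) sums varied less. The mean was lower in the null pools for all 12 endothelial markers (11 without overlap) and all 9 leukocyte markers (3 without overlap). It was higher for all 6 tested gonadal soma markers, 5 without overlap, of which Wnt4 entered the test only through the null pools. Without overlap, 23% of all tested probes were lower and 15.1% higher, and none of these markers passed the test. Germ cell markers summed to 3.54, 2.42, 5.14 and 2.06, and Ifitm3 (1.70) made up most of the sum in null 2. This sum too was highest in null 1, the pool where Hoxa13 and Hoxd13 were highest. Null 2 was above null 1 for 1 of the 11 tested germ cell markers (median -5.06). Dppa3, Pou5f1 and Tfap2c were highest in null 1, while Dazl and Mael were highest in wild-type 1. The part of these cells in the Hox values was not tested.

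**Figure D4:**
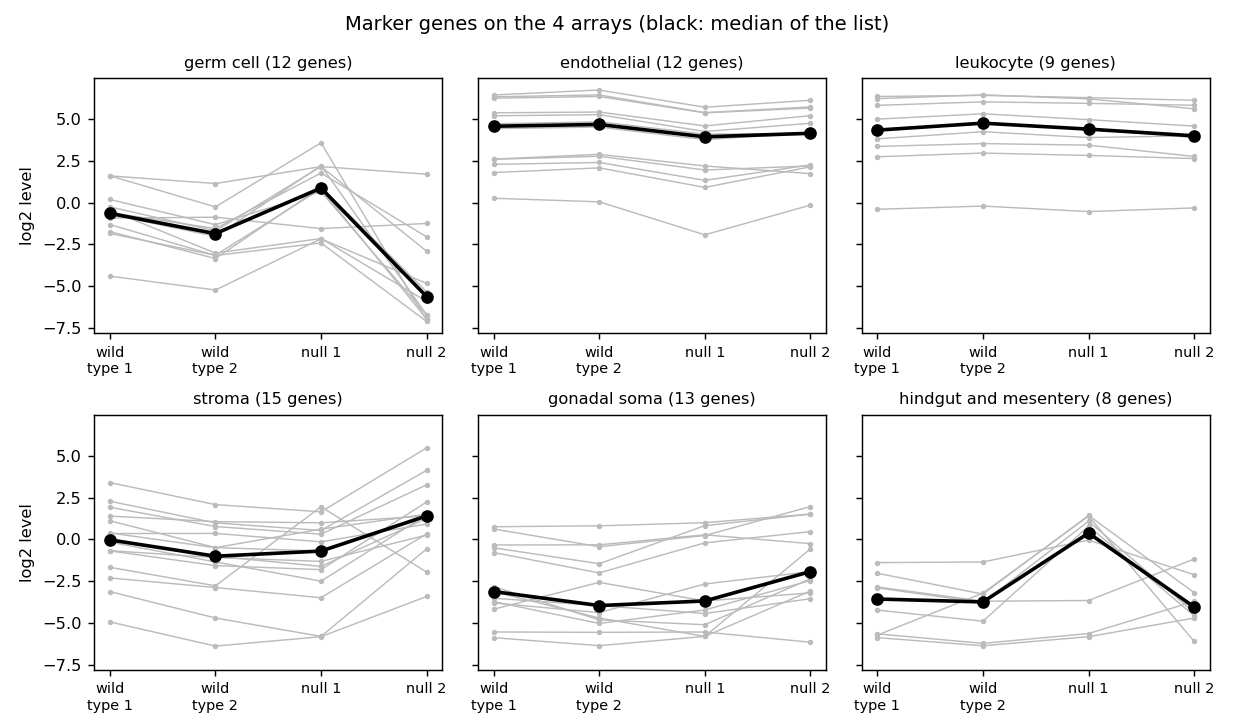
Log2 level of each marker gene in the 4 pools (grey lines join the values of one gene) and the median of the list (black), for 6 of the marker lists. The germ cell median is -5.62 in null 2 against -0.64, -1.85 and 0.87 in the other pools, and the stromal median is highest in null 2 at 1.40.

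The TALE homeodomain proteins bind DNA together with Hox proteins. Of 9 such genes 6 were tested, 5 with a higher and 1 with a lower mean in the null pools (median 0.34), and none passed the test; none had an unadjusted p under 0.05 either. Null 2 was above null 1 for 5 of the 6 (median 1.49). Meis2 was at 3.22 and 2.98 in wild type, 2.39 in null 1 and 4.24 in null 2, the same order as Hoxa4. Meis1 was at -0.69, -1.58, -1.07 and 0.32 (difference 0.76, limma adjusted p = 0.85). Pknox1 was at 0.45, 0.30, 0.07 and 0.12 (difference -0.28, limma adjusted p = 0.84). Pbx3 was highest in null 2 at 1.76, and Pbx2 varied between 3.31 and 3.59. Meis2, Pbx2 and Pbx3 were chosen for mention after their values were seen.

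Upstream of the clusters, Cdx factors switch on trunk Hox genes, and Evx1 and Evx2 lie beside HoxA and HoxD. Of 8 Cdx, ParaHox and Evx genes only Gsx1 and Evx2 were tested, with differences of -0.19 and -0.05 (limma adjusted p = 0.94 and 0.99). Cdx2, a hindgut factor, was at -5.73 and -3.22 in wild type, 1.39 in null 1 and -6.10 in null 2. Evx1, next to Hoxa13, was above background in null 1 alone, at -2.94. Both were thus highest in the pool where Hoxa13 and Hoxd13 were highest. The Cdx2 value is the one already given among the hindgut and mesentery markers, so it is not a second observation. Cdx2 and Evx1 did not enter the test and were named for their values, outside the rule of the smallest p.

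Of 14 Hox regulators, among them the Trithorax methyltransferase subunits and retinoic acid receptors, 12 had a probe and 10 were tested. The mean was higher in the null pools for 5 and lower for 5 (median 0.00), and none passed the test. Ash2l, a core subunit of the histone methyltransferase complexes, differed by 0.44 (limma adjusted p = 0.85). Null 2 was above null 1 for 3 of the 10, so the regulators did not share the order of Hoxa4 and Hoxb8.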

How the data were processed

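Sorted mVenus-positive cells were measured on 4 one-colour Agilent arrays, 1 per RNA pool, on 1 slide scanned once. The replicates are separate pools of embryos per the labels. Intensity values were extracted by the authors with Agilent Feature Extraction 10.7.3.1, per the file headers and the submitters' processing notes, with no scaling between arrays recorded in the headers. The deposited value table equals the processed intensity rounded to 3 digits (column medians 20.6, 22.6, 14.5 and 33.4). It was an alternative only.

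Computed here were log2 values of the deposited processed intensity minus the array's 75th percentile over 43379 spots other than controls. Spots marked as outliers, 83 to 104 on each array, were dropped, and 21 of 41174 probes went with them. Between 53.3% and 63.3% of spots were well above background. Probes entered the test where both arrays of a genotype were well above background (22440 probes; with several spots, a share of 0.5 of them had to be). The genotypes were tested in R 4.3.3 by limma 3.58.1, using lmFit and eBayes (no trend term) and two-sided tests, with Benjamini-Hochberg adjustment. Tables were handled with Python 3.11.15 and pandas 2.3.3, and the fit was tested on simulated data. Normexp background correction (offset 50) used median foreground and background signals, since the data read here held no mean foreground signal. Accessions named 26888 probes through RefSeq (GRCm38.p6). The array design was made on mm9, so only promoter coordinates of the RefSeq table are given. One further gene with such a symbol, and some genes of the partner and regulator lists, are not reported here by name.

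Values on every array are given for genes at least 2-fold apart without overlap, the 8 with the smallest p and the 6 with the widest range, with further genes given as levels. From each partner or regulator list up to 2 of those with the smallest p were named. The members and all lists were chosen with earlier results of these data known. Marker lists for erythroid and neural cells were also summed (1.49, 1.78, 1.29 and 1.77, and 3.27, 3.31, 2.83 and 3.25, in wild-type 1 and 2 and null 1 and 2).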

Additional observations from a re-analysis of the deposited data

How the results depend on the processing

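Alternatives were normexp background correction, quantile normalization, scaling to the median of the probes detected everywhere or to 7 spiked-in control probes, the deposited value table, no filter on dim probes, a trend in eBayes, the mean of a gene's probes, a replicate block and leaving out each pool. No Hox gene was called under any of these except 1, Hoxb13, with spike-in scaling, where 146 probes in all were called, against 2 in the fit reported. Across all probes, a trend called 7, a replicate block 13, quantile normalization 3, and no filter or leaving out any pool 0. Labels give shared replicate numbers but no shared source, so the fit reported did not pair the pools. Same-numbered pools deviated together at r = 0.066. That value cannot settle whether they were paired, since null 2 stood apart in its markers. With the replicate block 0 Hox genes were called and the median difference stayed 0.29. With spike-in scaling the median over the Hox genes was -0.26, 6 genes were higher in the null pools, the differences between null pools had medians of 1.56 (paralogs 2 to 8) and 0.36 (9 to 13), and the differences turned for Hoxa4 (-0.28), Hoxa11 (-0.087), Hoxb3 (-0.23) and Hoxb5 (-0.54). All probes had a median of -0.61 there, which is part of that scaling. With normexp 1 Hox gene, Hoxb8, was at least 2-fold apart without overlap, the differences of Hoxa6 and Hoxb13 were 0.43 and 0.31, and the median over paralogs 2 to 8 was 0.48; the cause was not tested. Leaving out 1 pool at a time, the median ranged from -0.10 to 0.70, the genes higher in the null pools from 8 to 18 and those 2-fold apart without overlap from 2 to 7. The differences ranged from -1.16 to 1.69 for Hoxa4, -0.89 to 0.90 for Hoxb5, -0.64 to 3.90 for Hoxb8 and -0.60 to 1.89 for Hoxd13. The medians by paralog number and the count of all probes called were followed through alternatives chosen after seeing the data. Hoxa2, Hoxa6, Hoxb13, Hoxc5, Hoxd8 and Hoxd9 kept their direction under every alternative run, most of which used the same 4 arrays. For Hoxa6 and Hoxb13 the filter had fixed that direction. Without null 2 the differences were only 0.025 for Hoxa2 and -0.076 for Hoxc5. The number of arrays and the low signal of Hoxa6, Hoxb13 and Hoxa13 limit the precision.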
